A study of Mus musculus with 6 samples.

Results

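The genes described here are Dkk3 and 8 further genes for secreted proteins known as antagonists of Wnt signalling or related to them by sequence: Dkk1, Dkk2, Dkkl1, Sfrp1, Sfrp2, Sfrp5, Frzb and Wif1. They were chosen by gene symbol, and all 9 were found among the 24346 symbols measured. Messenger RNA of mouse retina was sequenced in 3 libraries labelled Cyfip2 CKO, a conditional knockout of Cyfip2, and 3 libraries labelled Cyfip2 WT. The labels do not give the age of the animals, the Cre driver or the cell type in which Cyfip2 was deleted. Without the driver, an effect of the Cre transgene on Dkk3 or any other gene cannot be told apart from an effect of losing Cyfip2. The labels also do not say whether each library came from a separate animal, so the spread between libraries may be technical. Dkk3 was singled out because of its difference between CKO and WT retina in these same libraries, so that difference is described here without a test. For the other 8 genes the question was whether their levels differed between CKO and WT retina as well.

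Wnt proteins are secreted ligands that bind a Frizzled receptor together with Lrp5 or Lrp6 on the receiving cell. This stabilises beta-catenin, which then acts with the DNA-binding TCF and LEF proteins on target genes. Secreted antagonists act at the first step. Dkk1 and Dkk2, of the Dickkopf family, bind Lrp5 and Lrp6 and can remove them from the surface together with Kremen proteins, while the Sfrp proteins, Frzb (also called Sfrp3) and Wif1 bind the Wnt ligand itself. Dkk3 is the divergent member of the Dickkopf family: it does not block Lrp6 as Dkk1 does, and its action on Wnt signalling depends on the cell. It is known from Muller glia, the radial glia of the retina, among other cells. Dkkl1 is a testis-expressed relative of Dkk3.

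Dkk1 is itself a known target of beta-catenin in other tissues, and Frzb was the most abundant of the 8 further genes, so the start regions of these 2 are shown. RefSeq promoter windows on GRCm38.p6, from 250 bases before to 50 bases after the start, were at hand for 7 of the 9 genes, without Dkk3 and Sfrp1. Each was searched on both strands for the 4 forms of the TCF and LEF consensus, CTTTGAA or CTTTGAT as well as CTTTGTA or CTTTGTT, and no match overlapped another in these windows. Matches are in capitals, and both windows are read 5′ to 3′ on the minus strand.
Dkk1 (chr19:30549447-30549746, minus strand): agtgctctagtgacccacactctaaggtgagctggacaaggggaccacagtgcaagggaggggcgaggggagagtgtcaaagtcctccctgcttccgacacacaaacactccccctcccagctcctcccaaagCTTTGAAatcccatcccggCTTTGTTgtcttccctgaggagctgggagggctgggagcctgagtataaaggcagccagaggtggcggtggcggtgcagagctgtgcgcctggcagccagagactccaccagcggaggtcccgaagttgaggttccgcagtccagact
Frzb (chr2:80447347-80447646, minus strand): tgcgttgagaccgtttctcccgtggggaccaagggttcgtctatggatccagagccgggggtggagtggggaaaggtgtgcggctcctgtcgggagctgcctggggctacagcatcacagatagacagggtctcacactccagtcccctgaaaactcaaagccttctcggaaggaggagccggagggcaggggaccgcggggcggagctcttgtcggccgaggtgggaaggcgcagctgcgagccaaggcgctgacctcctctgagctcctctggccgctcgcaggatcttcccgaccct

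The Dkk1 window held 2 matches, CTTTGAA at position -117 and CTTTGTT at position -98 from the RefSeq start. The windows of Frzb, Sfrp2, Sfrp5, Wif1, Dkk2 and Dkkl1 held none. Among 32851 windows of the same length, 16.9% held at least 1 match and 1.94% at least 2. These are matches of letters, and binding was not measured. Dkk1 had the lowest level of the 9 genes.

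Levels are in FPKM, a fragment count divided by transcript length in kilobases and by library size. Every listed marker of Muller glia (18 genes), amacrine cells (10 genes) and ganglion cells (11 genes) was detected, as the retinal label implies. The targeted gene Cyfip2 was at 8.33, 10.2 and 11.2 FPKM in CKO libraries 1 to 3, against 35.5, 63.1 and 62.3 FPKM in WT libraries 1 to 3. WT 1 thus stood apart from the other WT libraries for Cyfip2. Without WT 1 the log2 fold change of Dkk3 described below was 0.91 and that of Frzb -0.25 (limma adjusted p = 0.6419). Summed FPKM was 402832 to 414650 in CKO and 405367 to 436299 in WT libraries.

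Dkk3 was by far the most abundant of the 9 genes. It was at 416.1, 450.3 and 474.3 FPKM in the CKO libraries, against 228.3, 240.5 and 232.8 FPKM in the WT libraries. Every CKO library was thus above every WT library, and the gap between the groups exceeded the whole range within either. The means were 446.9 ± 29.2 FPKM in CKO and 233.9 ± 6.15 FPKM in WT retina (SD, n = 3 each), a ratio of 1.91, or 0.93 on the log2(FPKM + 1) scale. In the ranking of all symbols by FPKM, Dkk3 stood at place 83 to 90 in CKO libraries and at place 226 to 254 in WT libraries. The spread between libraries was 6.54% of the mean in CKO and 2.63% in WT. Dkk3 (ENSMUSG00000030772) spans 112116017 to 112159057 of chromosome 7 (GRCm38, minus strand), with 1 annotated transcript of 8 exons and no overlapping gene.

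None of the other 8 genes passed the threshold in any fit that was run. Frzb, the only one above 5 FPKM, was lower in every CKO library than in any WT library, short of the threshold. Sfrp1 had nearly equal means in both groups, and the remaining 6 were below the filter on low values. Limma with Benjamini-Hochberg adjustment over the 13215 genes that averaged at least 1 FPKM called 0 of the 2 that could be tested. Over all tested genes 0.0227% were called, 0.0151% higher and 0.00757% lower in CKO. At an unadjusted p under 0.05, 1 of the 2 was lower (Frzb) and none was higher, against 4.36% lower and 3.52% higher among all tested genes. The filter fell between Sfrp1, with a mean of 1.88 FPKM over the 6 libraries, and Sfrp2, with 0.965 FPKM.

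**Figure D1:**
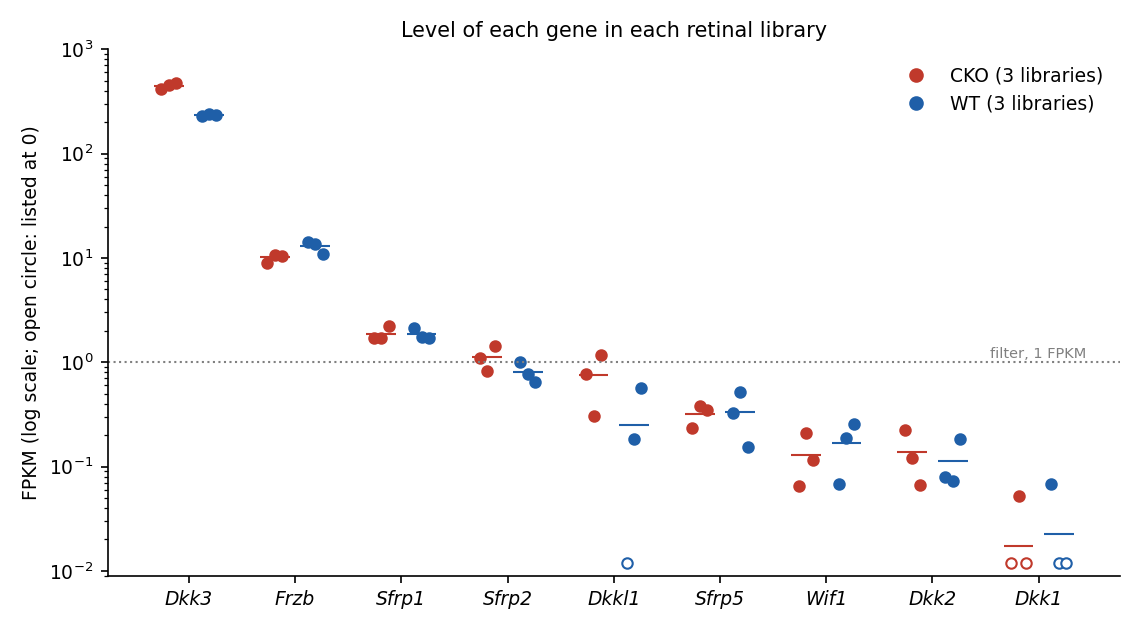
FPKM of each of the 9 genes (log scale) in 3 CKO libraries (red) and 3 WT libraries (blue). Points are libraries, lines are group means, open circles are libraries listed at 0, and the dotted line is the filter at 1 FPKM. Dkk3 was at 416.1 to 474.3 FPKM in CKO and 228.3 to 240.5 FPKM in WT libraries, while the other genes lay at 14.1 FPKM or less.

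Frzb encodes a secreted protein with a Frizzled-like cysteine-rich domain that binds Wnt ligands. It was at 9.03, 10.7 and 10.4 FPKM in the CKO libraries, against 14.1, 13.7 and 10.8 FPKM in the WT libraries. The groups did not overlap, but WT 3 lay just above the CKO libraries and well below the other WT libraries. Lack of overlap with CKO lower was found for 6.95% of all tested genes. The means were 10.1 ± 0.915 FPKM in CKO and 12.9 ± 1.79 FPKM in WT retina (SD, n = 3 each). On the log2 scale CKO minus WT was -0.32 (SE 0.11, 95% confidence interval -0.57 to -0.064), with an unadjusted p of 0.02033 and an adjusted p of 0.5551 by limma. The difference thus did not pass the threshold, and its interval lay wholly below 0, opposite in sign to the difference of Dkk3. Frzb was at 2.11% in the ranking of all tested genes by fold change, counted from the lowest. Summed FPKM of 11 lens genes was 43.9 to 102 in CKO and 62.3 to 370 in WT libraries, with the highest value in WT 2, and its part in the Frzb values was not tested. Without WT 2 the log2 fold change of Frzb was -0.27 (limma adjusted p = 0.6973). Frzb (ENSMUSG00000027004) spans 80411970 to 80447625 of chromosome 2 (GRCm38, minus strand) and overlaps no other annotated gene.

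Sfrp1 encodes another Wnt-binding protein of the Sfrp family and lies on chromosome 8 (GRCm38, 23411502 to 23449632, plus strand). It was at 1.71, 1.71 and 2.24 FPKM in CKO libraries, against 2.15, 1.75 and 1.71 FPKM in WT libraries. Each group had 1 higher library and 2 lower ones, and the groups overlapped fully. Its log2 fold change was 0.0045 with a 95% confidence interval of -0.29 to 0.30 (limma adjusted p = 0.9943), an interval whose upper end lies below the 0.93 of Dkk3 on the same scale, which understates changes of low genes. Within each library the ratio of Dkk3 to Frzb was 41.9 to 46.1 in CKO and 16.2 to 21.5 in WT, a measure that does not depend on how libraries were scaled. That ratio holds the Dkk3 values that chose it and is given as a description. The 8 genes other than Dkk3 summed to 13.1 to 15.8 FPKM in CKO and 14.3 to 17.8 FPKM in WT libraries. Dkk3 made up 96.8% to 96.9% of the sum of all 9 in CKO and 92.8% to 94.2% in WT libraries.

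For these 8 genes the depth behind each value could be read from the values themselves. After scaling by the relative depth of the libraries (1 in WT 1, the shallowest, and 1.3 in CKO 2, the deepest), the 6 values of each gene were whole multiples of 1 gene-specific step, to within 0.001 of a whole number. Fragments counted on 1 transcript length would give such steps, and the number of steps is taken below as the number of fragments. Frzb stood on 186, 274 and 243 steps in the CKO libraries, against 278, 294 and 226 steps in the WT libraries. On that reading, counting error was 5.83% to 7.33% of each Frzb value, against a spread between libraries of 9.08% of the mean in CKO and 14% in WT. Sfrp1 stood on 54, 67 and 80 steps in CKO and 65, 58 and 55 steps in WT libraries, where counting error was 11.2% to 13.6% and the spread was 16.1% in CKO and 12.9% in WT.

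Sfrp2, another Wnt-binding member of the Sfrp family, was at 1.1, 0.832 and 1.43 FPKM in CKO libraries, against 1, 0.774 and 0.652 FPKM in WT libraries. These values stood on 15, 14 and 22 steps in CKO and 13, 11 and 9 steps in WT libraries, and CKO 2 lay below WT 1. The means were 1.12 ± 0.3 FPKM in CKO and 0.809 ± 0.177 FPKM in WT retina (SD, n = 3 each). In a fit without the filter on low values the log2 fold change was 0.23 (95% confidence interval -0.083 to 0.53, limma adjusted p = 0.7834). Sfrp2 overlaps the annotated gene Gm26771, and since the use of strand in counting is not given, reads of both genes could not be told apart. Sfrp5 was at 0.234, 0.378 and 0.345 FPKM in CKO libraries, against 0.326, 0.522 and 0.154 FPKM in WT libraries, on 3, 6 and 5 steps in CKO and 4, 7 and 2 steps in WT. Both the highest and the lowest library were WT.

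Dkkl1 was at 0.763, 0.308 and 1.18 FPKM in CKO libraries, against 0, 0.182 and 0.564 FPKM in WT libraries. These values rested on 4, 2 and 7 steps in CKO and 0, 1 and 3 steps in WT libraries, in all 13 steps in CKO and 4 in WT, at a summed depth of 3.53 in CKO and 3.16 in WT relative to WT 1. CKO 2 lay below WT 3, so the groups overlapped. The fit without the filter gave a log2 fold change of 0.48 (95% confidence interval -0.042 to 1, limma adjusted p = 0.7145). This was the largest positive value among the 8 genes, its interval held 0, and no library held more than 7 steps. Dkkl1 (ENSMUSG00000030792) lies on chromosome 7 from 45207519 to 45212147 (GRCm38), far from Dkk3 on the same chromosome.

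The remaining genes were at or near the limit of detection. Dkk2 was at 0.226, 0.122 and 0.0666 FPKM in CKO libraries, against 0.0788, 0.072 and 0.185 FPKM in WT libraries, on 2 to 6 steps in CKO and 2 to 5 steps in WT. Wif1, which binds Wnt ligands through a domain of its own, was at 0.0648, 0.209 and 0.115 FPKM in CKO libraries, against 0.0678, 0.186 and 0.255 FPKM in WT libraries. It stood on 1 to 4 steps in either group. Dkk1 was listed at 0 in 4 of the 6 libraries, with 1 step in CKO 2 (0.0525 FPKM) and 1 step in WT 1 (0.068 FPKM). No difference in these 3 genes was detectable at this depth, which does not show that their levels were alike. In the fit without the filter, limma adjusted p was between 0.7145 and 0.991 for the 6 genes with a mean below 1 FPKM. In bulk retina, fewer cells of a type and less RNA per cell cannot be told apart for any of these genes.

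**Figure D2:**
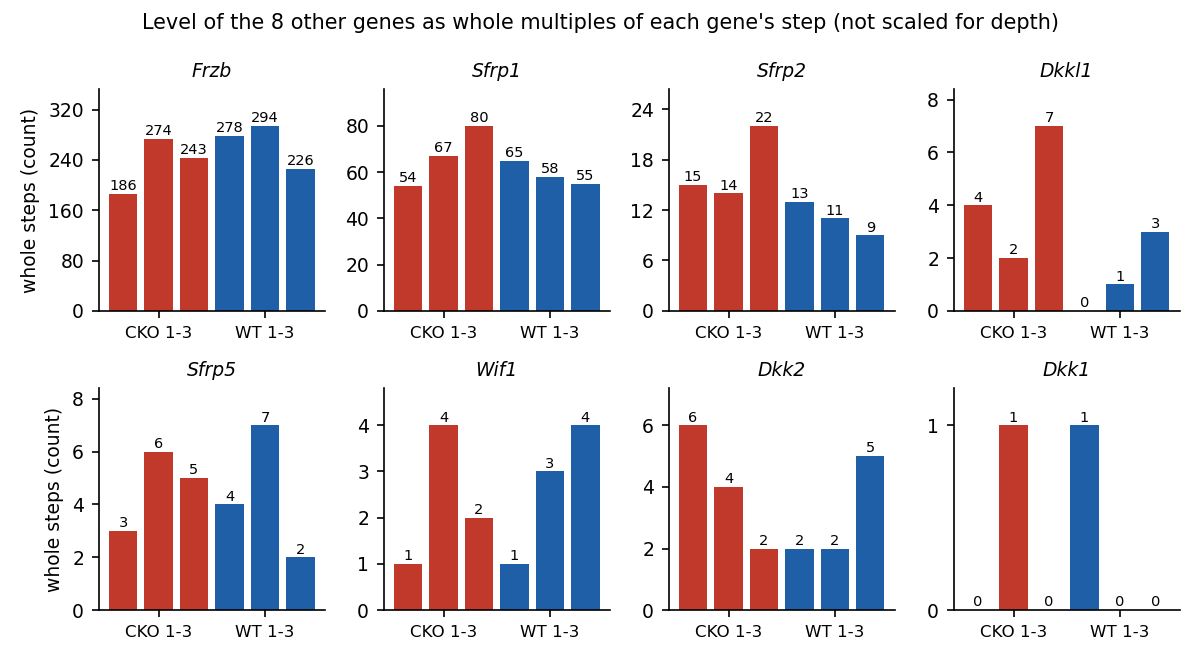
Number of whole steps behind the FPKM value of each of the 8 genes other than Dkk3, in CKO libraries 1 to 3 (red) and WT libraries 1 to 3 (blue), not scaled for the depth of the library. Frzb stood on 186 to 274 steps in CKO and 226 to 294 in WT libraries, while Dkk1 had 1 step in 1 library of each group.

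By level, the 9 genes fell in the order Dkk3, Frzb, Sfrp1, Sfrp2, Dkkl1, Sfrp5, Wif1, Dkk2 and Dkk1, with means over the 6 libraries of 340.4, 11.5, 1.88, 0.965, 0.5, 0.326, 0.15, 0.125 and 0.0201 FPKM. Dkk3 was above Frzb, Frzb above Sfrp1, Sfrp1 above Sfrp2, Sfrp2 above Dkkl1 and Dkk2 above Dkk1 in every library. The order of Dkkl1 and Sfrp5, of Sfrp5 and Wif1, and of Wif1 and Dkk2 differed between libraries. From Sfrp2 downwards the ranges of neighbouring genes over the 6 libraries overlapped.

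The rest of the Wnt pathway held no gene past the threshold. Of 89 genes in 7 lists of ligands, receptors, modulators, secretion factors, intracellular components and targets, 57 were tested. In fold change 28 lay above 0 and 29 below 0 (49.5% above and 50.5% below among all tested genes). Limma called 0 of the 57 in either direction, beside 0.0227% of all tested genes, so a count of 0 does not set the pathway apart. The median log2 fold change was -0.000, beside -0.002 over all tested genes. At an unadjusted p under 0.05, 2 were higher and 5 lower in CKO (12.3%, beside 7.88% of all tested genes). The groups did not overlap for 12 of the 57, 5 higher and 7 lower in CKO (21.1%, beside 13.9% of all tested genes).

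On the ligand side, 3 of 19 Wnt genes passed the filter. Wnt2b, known from the margin of the retina, was at 5.51, 5.31 and 5.64 FPKM in CKO libraries, against 6.96, 6.92 and 6.39 FPKM in WT libraries. The groups did not overlap, and the log2 fold change was -0.26 (95% confidence interval -0.43 to -0.082, limma adjusted p = 0.4915). Wls, the carrier that brings Wnt ligands to the cell surface, was at 1.59, 2.23 and 2.35 FPKM in CKO libraries, against 3.11, 2.84 and 3.19 FPKM in WT libraries. All CKO libraries were below all WT libraries, with a log2 fold change of -0.41 (95% confidence interval -0.71 to -0.12, limma adjusted p = 0.5065). Wnt5b, the other tested ligand gene without overlap, was named here after its values were seen. It was at 1.74, 1.56 and 1.34 FPKM in CKO libraries, against 2.17, 1.92 and 2.18 FPKM in WT libraries (log2 fold change -0.28, 95% confidence interval -0.54 to -0.011, limma adjusted p = 0.6122). None of these 3 genes passed the threshold, and lack of overlap with CKO lower was found for 6.95% of all tested genes. Wnt5a, a ligand mostly of beta-catenin-independent signalling, was at 3.53 ± 0.0972 FPKM in CKO retina, against 3.63 ± 0.205 FPKM in WT retina (SD, n = 3 each), and Porcn, which acylates Wnt ligands, had a log2 fold change of -0.077 (interval -0.22 to 0.067).

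The receptors that Dickkopf proteins act through were present and showed no difference past the threshold. Lrp6 was at 11.9 ± 0.378 FPKM in CKO retina, against 11.7 ± 0.709 FPKM in WT retina, and Lrp5 at 3.32 ± 0.196 FPKM in CKO retina, against 3.12 ± 0.323 FPKM in WT retina (SD, n = 3 each). Kremen1 was at 11.5 ± 0.502 FPKM in CKO retina, against 11.3 ± 1.21 FPKM in WT retina, with a log2 fold change of 0.027 (95% confidence interval -0.17 to 0.22). Kremen2 stood near the filter at 1.12 FPKM in CKO retina, against 1.3 FPKM in WT retina. Of the 5 genes in the Dickkopf receptor list, all tested, 4 lay above 0 and Kremen2 below it, with a median log2 fold change of 0.025 and none called.

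Ndp encodes norrin, which is not a Wnt protein but signals through the receptors Fzd4 and Lrp5 with Tspan12 in growth of the retinal vessels. It was at 4.8, 4.99 and 4.38 FPKM in CKO libraries, against 5.42, 5.46 and 7.05 FPKM in WT libraries. The groups did not overlap, with WT 3 highest (CKO lower without overlap: 6.95% of all tested genes). The difference did not pass the threshold (log2 fold change -0.28, 95% confidence interval -0.54 to -0.023, limma adjusted p = 0.6007). Log2 fold changes of its receptor genes were -0.049 for Fzd4, 0.073 for Lrp5 and 0.087 for Tspan12, with intervals that held 0. Fzd5, the most abundant Frizzled gene here, lay at -0.091 (interval -0.29 to 0.11) and Igfbp4, a secreted binder of Lrp6 and Frizzled, at 0.018 (interval -0.11 to 0.15). Of 16 tested receptor and co-receptor genes, 8 lay above 0 and 8 below. The groups did not overlap for 12.5% of them, beside 13.9% of all tested genes. These were Fzd6, lower in CKO (-0.31, interval -0.61 to -0.02, limma adjusted p = 0.6038), and Fzd3, higher in CKO (0.17, interval -0.022 to 0.36). Rspo3 was listed at 0 in all libraries.

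No downstream gene passed the threshold, which 0.0227% of all tested genes passed. Of 10 tested target and feedback genes of beta-catenin, 5 lay above 0 and 5 below, at a median log2 fold change of 0.011 and none at an unadjusted p under 0.05. Axin2, the target most widely used as a readout of the pathway, was at 9.16, 9.19 and 7.44 FPKM in CKO libraries, against 8.23, 8.58 and 6.98 FPKM in WT libraries. The groups overlapped, and the log2 fold change was 0.10 (95% confidence interval -0.14 to 0.35, limma adjusted p = 0.8603). Nkd1, a feedback inhibitor, lay at -0.015 (interval -0.16 to 0.13) and Ccnd1, the cyclin D1 gene, at -0.034 (interval -0.23 to 0.17). Lef1 was below the filter, at 0.744 FPKM in CKO retina, against 0.866 FPKM in WT retina. Beta-catenin itself, Ctnnb1, was at 158.9 ± 2.96 FPKM in CKO retina, against 161.6 ± 3.78 FPKM in WT retina (SD, n = 3 each), and its kinase Gsk3b had a log2 fold change of -0.085 (interval -0.18 to 0.015). Of the 16 genes in the list of intracellular components, all tested, 9 lay above 0 and 7 below, at a median log2 fold change of 0.018. The groups did not overlap for 5 of them (31.2%, beside 13.9% of all tested genes). Apc, Tcf7l1 and Pygo1 were higher and Gsk3b and Csnk1a1 lower in CKO, named apart from Gsk3b after their values were seen. At an unadjusted p under 0.05 by limma, 2 of the 16 were higher and 0 lower (12.5%, beside 7.88% of all tested genes). Pygo1, a cofactor of beta-catenin, had the largest difference of the list, at 9.27 ± 1.24 FPKM in CKO retina, against 7.49 ± 0.252 FPKM in WT retina (SD, n = 3 each; log2 fold change 0.27, 95% confidence interval 0.047 to 0.49, limma adjusted p = 0.5723). Transcript levels of the intracellular components do not report the activity of the pathway, which runs through protein stability. Activity itself was not measured, and transcripts of target genes are an indirect readout of it.

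**Figure D3:**
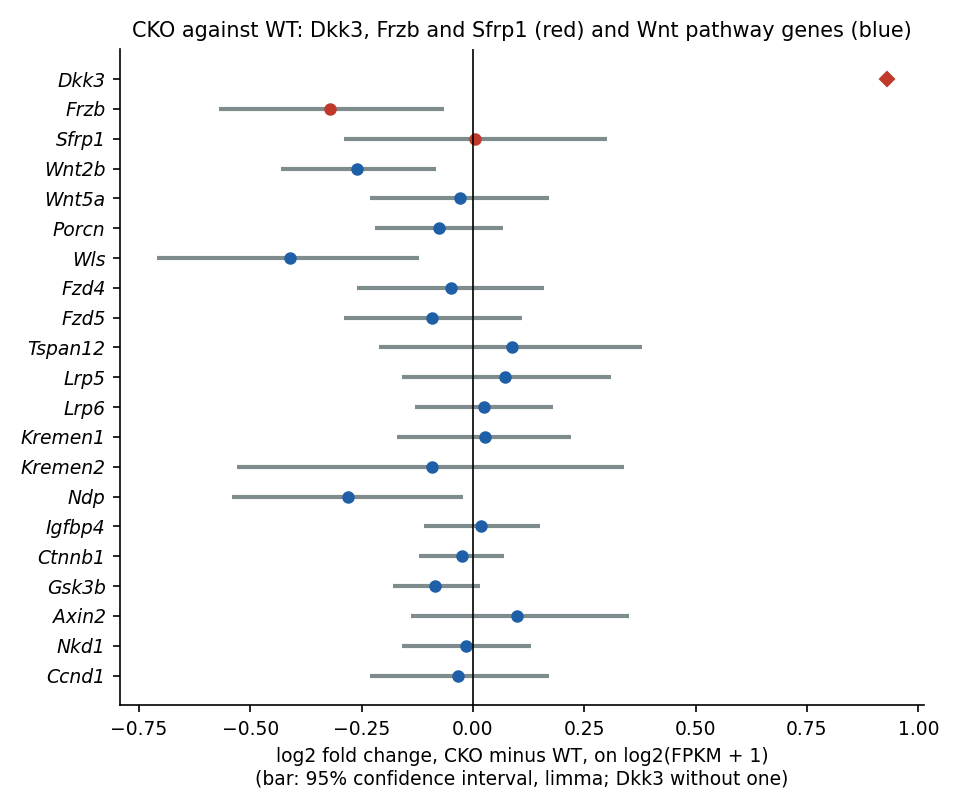
Log2 fold change, CKO minus WT, on the log2(FPKM + 1) scale for Dkk3, Frzb and Sfrp1 (red) and for 18 Wnt pathway genes (blue), with 95% confidence intervals from limma as bars. Dkk3, at 0.93, is shown without an interval since it was chosen for this difference, and the other genes lay between -0.41 and 0.10.

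Of 18 Muller glia markers, all detected, 10 lay above 0 and 8 below in CKO against WT, at a median log2 fold change of 0.016. The groups did not overlap for Abca8a, higher in CKO, and Vim, lower in CKO (6.96% and 6.95% of all tested genes). Their summed level, in which abundant genes weigh most, was 2687.9 to 2866.2 FPKM in CKO and 2722.2 to 2787.9 FPKM in WT libraries. The groups thus overlapped in this sum. Amacrine markers lay higher in CKO, with 9 of 10 above 0 in fold change. For 8 of them the groups did not overlap (CKO higher without overlap: 6.96% of all tested genes). Their sum was 539 to 555 FPKM in CKO and 466 to 491 FPKM in WT libraries, with a median log2 fold change of 0.200. Ganglion cell markers lay lower, with 10 of 11 below 0, 8 of them with no overlap between groups (CKO lower without overlap: 6.95% of all tested genes). Their median log2 fold change was -0.141, and their sum was 766 to 790 FPKM in CKO and 842 to 902 FPKM in WT libraries. These lists were chosen with earlier results of these data known, so the counts set beside those shares are descriptions. The part of the Muller glia, amacrine and ganglion cell markers in the Dkk3 values was not tested. Pigment epithelium markers summed to 14.7 to 19.3 FPKM in CKO and 10.4 to 18.8 FPKM in WT libraries. Of 11 genes of cornea, conjunctiva and ciliary epithelium, Krt5, Krt14 and Kera were at 0 in all libraries, and the others were detected. The 11 genes summed to 6.68 to 9.66 FPKM in CKO and 8.65 to 9.42 FPKM in WT libraries. The groups did not overlap for 2 of them, with CKO lower (6.95% of all tested genes).

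Among the tested genes whose 6 values ran most like those of Dkk3 were Pla2g4e, a cytosolic phospholipase A2, Tac2, the neurokinin B precursor, Casq1, a calcium-binding protein of the sarcoplasmic reticulum, and the opposite-strand transcript Zfp652os. Likeness was the root mean square difference, over the 6 libraries, between the deviations of log2(FPKM + 1) from each gene's own mean. It was 0.095 for Pla2g4e, 0.163 for Tac2, 0.211 for Casq1 and 0.215 for Zfp652os, where a gene at 1 level in all libraries would have 0.468 and the median over 13214 genes was 0.480. Pla2g4e was at 4.53, 4.86 and 4.8 FPKM in CKO libraries, against 1.61, 1.86 and 2.22 FPKM in WT libraries. Casq1 was at 1.5, 2.49 and 1.96 FPKM in CKO libraries, against 0.994, 0.909 and 1.01 FPKM in WT libraries. These genes were found by their CKO and WT values, so their differences are descriptions. A predicted gene at place 2 of the ranking was left out of the naming, and the use of strand, on which the value of Zfp652os depends, is not given. These 4 genes were much lower than Dkk3, and the most abundant of them, Tac2, averaged 22.9 FPKM in CKO retina, against 13.7 FPKM in WT retina. The scale understates changes of low genes, so the ranking depends in part on level. The ratio of CKO to WT means was 2.49 for Pla2g4e, 1.67 for Tac2, 2.04 for Casq1 and 2.07 for Zfp652os, beside 1.91 for Dkk3.

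Usp47, a deubiquitinase gene that ends 4355 bp from the 3′ end of Dkk3 on the opposite strand, stood at place 8 of this ranking with a difference of 0.235. It was at 58.8, 58.5 and 61.2 FPKM in CKO libraries, against 42.9, 41.7 and 43.1 FPKM in WT libraries, and the ratio of Dkk3 to Usp47 within libraries was 7.07 to 7.75 in CKO and 5.32 to 5.77 in WT. Sfrp1 stood at place 5903 and Frzb at place 12785 of 13214.

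**Figure D4:**
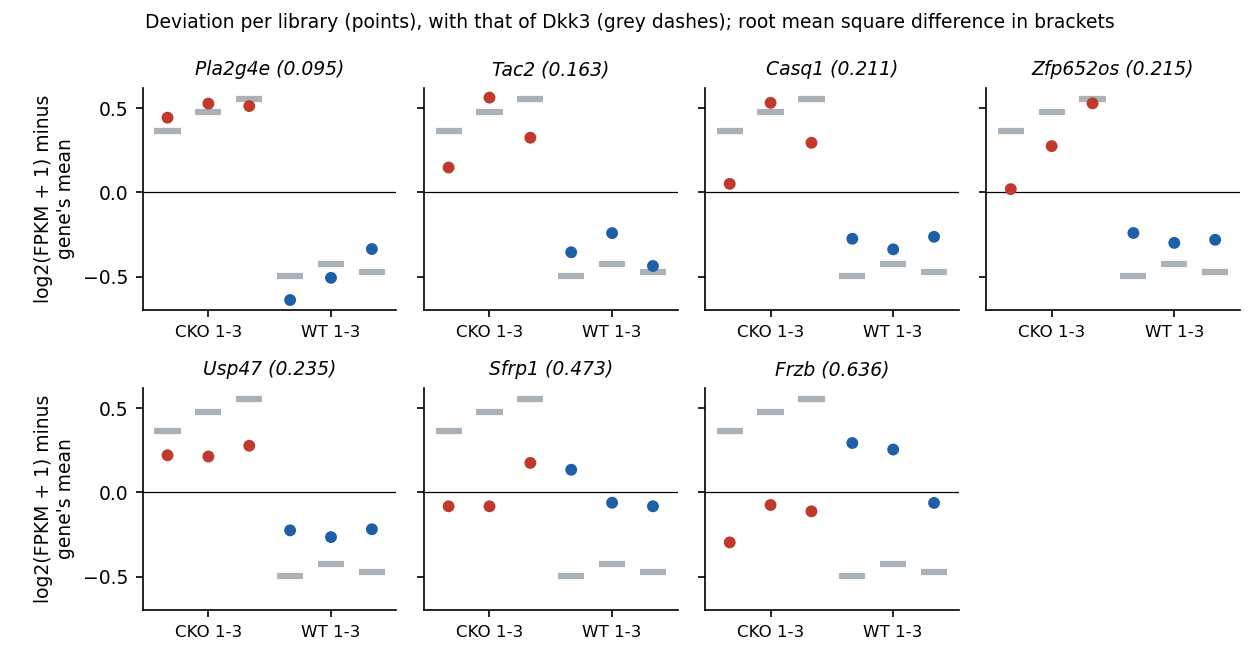
Deviation of log2(FPKM + 1) from the gene's own mean in CKO libraries 1 to 3 (red points) and WT libraries 1 to 3 (blue points), with the deviation of Dkk3 as grey dashes and the root mean square difference in brackets. On this scale, which understates changes of low genes, Pla2g4e followed Dkk3 most closely at 0.095. Frzb, at 0.636, lay on the other side of 0 from Dkk3 in 5 of the 6 libraries.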

How the data were processed

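Retinal mRNA of 3 CKO and 3 WT samples was sequenced from TRIzol-extracted RNA, using the TruSeq stranded mRNA chemistry, per the labels' protocols. The authors deposited 1 FPKM value per gene symbol and library. Tools named in the submitters' processing notes are TopHat2 2.0.13, Bowtie2 2.3.5.1, SAMtools 1.11 and Cufflinks 2.2.1, with build mm10; what each did, the annotation, how libraries were scaled and whether strand was used are not stated there. Date-like entries replaced 27 symbols in WT 3, which were read from the matching rows elsewhere.

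FPKM was put on a log2 scale with a pseudocount of 1, which understates changes of low genes. The 13215 genes averaging 1 FPKM or more went into limma 3.58.1 (R 4.3.3; variance trend on, no covariate, two-sided tests), and p-values were adjusted over all of them by Benjamini-Hochberg, with calls at 0.05. This fit was tested on simulated data. No exact permutation test was run because 3 against 3 cannot give less than 0.1. Relative depth was the commonest ratio to WT 1 among genes averaging under 0.3 FPKM, and steps were sought with a tolerance of 0.05; counting errors taken from steps cover counting only. Positions are from GENCODE M21 (GRCm38) and promoter windows from RefSeq (GRCm38.p6). The 9 genes and all lists were chosen with earlier results of these data known. Named genes are the 9, Cyfip2, Usp47, 20 pathway genes listed by name and the 5 genes most like Dkk3 (predicted and microRNA genes aside), 1 of which is not reported here; marker genes at 0, Wnt5b, some intracellular components and neighbouring genes were named after their values were seen. Alternatives were pseudocounts of 0.1 and 0.01, other filters, scalings and variance models, sample weights, a replicate block and each library left out.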

Additional observations from a re-analysis of the deposited data

How the results depend on the processing

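The count of called genes was 0 in all 17 alternative fits, both for the genes other than Dkk3 and for the Wnt pathway lists, with 8 of the 8 genes tested without a filter and 1 with a minimum mean of 5 FPKM. The log2 fold change of Dkk3 lay between 0.89 and 0.98 in the 17 alternatives, with both ends from leaving out a library (0.8856 without CKO 3, 0.9798 without CKO 1). Frzb stayed below 0 in all 17, at -0.43 to -0.25, with limma adjusted p of 0.4307 to 0.7995; the value nearest 0 came without CKO 1 and the lowest without WT 3. Sfrp1 changed sign with sample weights (-0.0098) and lay between -0.0810 and 0.0728 when a library was left out, below 0 without CKO 3 (-0.0810), WT 2 (-0.0242) or WT 3 (-0.0351); the cause was not tested. For the same replicate numbers in both groups, correlations of deviations were 0.072, 0.006 and 0.101. CKO 1 and CKO 3 correlated best with the WT library of their own number, and CKO 2 best with WT 1 (0.036). Correlations between unlike numbers lay between -0.119 and 0.036. The numbers were not taken as pairs, though these values cannot decide whether they are. With the replicate block 0 of the genes and 0 of the pathway genes were called. Over all genes 1 was then higher and 1 lower, beside 2 and 1 without the block. Depth limits Dkk1, Dkk2, Wif1, Sfrp5 and Dkkl1, which rest on at most 7 steps per library.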

Other observations

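The nearest tested genes on either side of the 8 genes other than Dkk3, looked up after the values were seen, held none past the limma threshold. Over all tested genes 0.0227% were past it, and Usp47, beside Dkk3, was among these (limma adjusted p = 0.02389). Frzb lies on chromosome 2 from 80411970 to 80447625 (GRCm38), 52886 bp from Nckap1, which encodes the partner of Cyfip proteins in the WAVE complex. Nckap1 was at 50.9 FPKM in CKO retina, against 53.3 FPKM in WT retina (log2 fold change -0.064, 95% confidence interval -0.17 to 0.038), and Dnajc10, on the other side of Frzb, at 24.8 FPKM in CKO retina, against 25 FPKM in WT retina (-0.014). Dkkl1 has close neighbours on both sides: Ccdc155, 2626 bp away, was at 1.24 FPKM in CKO retina, against 1.92 FPKM in WT retina (log2 fold change -0.36, limma adjusted p = 0.6597), and Tead2, a partner of Yap in Hippo signalling, 3605 bp away, was at 5.15 FPKM in CKO retina, against 5.57 FPKM in WT retina (-0.097, limma adjusted p = 0.8172). Mical2, the neighbour of Dkk3 at its 5′ side, 66798 bp away, was at 5.39 FPKM in CKO retina, against 5.73 FPKM in WT retina (-0.077, limma adjusted p = 0.8757).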
